A study of Homo sapiens with 6 samples.

Results

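Actin cytoskeleton genes that serum response factor (SRF) is known to drive were followed as a panel of 10 genes, found by their gene names among the 58735 rows of the deposited count table: SRF itself, the cytoplasmic actins ACTB and ACTG1, the actin-binding genes TPM1, ACTN1, FLNA and VCL, and the smooth muscle-type genes TAGLN, CNN1 and MYL9. They were compared in A549, a human lung adenocarcinoma cell line, between cells labelled as overexpressing IL17D, a secreted cytokine of the IL-17 family, and control cells labelled as overexpressing the empty vector, with 3 libraries in each group. Both groups carried a lentiviral construct, in which the human PGK promoter drives the insert together with GFP, and both were grown in RPMI1640 with serum. Nothing states whether the libraries of a group came from separate transductions, clones or cultures, so p-values measure the spread between these libraries, which may be technical.

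SRF is a transcription factor that binds CArG boxes, short A- and T-rich elements flanked by C and G. One class of partners, the myocardin-related factors MRTFA and MRTFB, is held back by unpolymerised actin and released when actin assembles into filaments, so that actin and actin-binding genes are transcribed. Another class, the ternary complex factors ELK1, ELK3 and ELK4, is phosphorylated by MAP kinases and directs SRF to immediate early genes such as EGR1. In smooth muscle, SRF together with myocardin switches on contractile genes such as TAGLN, CNN1 and MYL9.

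Sequences were taken from RefSeq promoter windows on GRCh38.p14, which run from 250 bases before to 50 bases after an annotated start, and 7 of the 10 genes matched at least 1 window. ACTB, TAGLN and MYL9 did not match. A CArG box was found in 4 of the 11 matched windows, and 454 of all 35116 windows (1.29%) held one. The pattern reads the same on both strands, and overlapping boxes were allowed. The stretches with a box are shown because they are the letters that make these genes candidates for SRF binding, with each box in capitals. Distances are counted from the RefSeq start of each window, which can differ from the gene coordinates given further below. SRF has 2 boxes, which start 30 and 10 bases before its RefSeq start (chr6:43171224-43171268, plus strand). The box of ACTG1 starts 94 bases before its RefSeq start (chr17:81512869-81512908, minus strand), and so does that of FLNA (chrX:154374704-154374743, minus strand). Of the 4 windows of ACTN1, 1 has a box, 171 bases before that start (chr14:68977713-68977752, minus strand). EGR1, an immediate early gene outside the panel, is shown beside them and has 2 boxes (chr5:138465359-138465420, plus strand).
SRF: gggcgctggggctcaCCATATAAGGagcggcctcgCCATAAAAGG
ACTG1: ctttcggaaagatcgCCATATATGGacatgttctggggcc
FLNA: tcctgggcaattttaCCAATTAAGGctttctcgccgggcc
ACTN1: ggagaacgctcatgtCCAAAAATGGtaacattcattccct
EGR1: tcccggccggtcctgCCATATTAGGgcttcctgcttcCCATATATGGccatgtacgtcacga
The windows of TPM1, CNN1 and VCL did not hold these letters, which says nothing about boxes in introns or farther upstream.

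Libraries held 14319398 to 16521021 counts on genes, and 3 counts, the limit that a count of 0 allows, corresponded to 0.182 to 0.210 CPM (counts scaled to a common library size). This limit covers counting error only. IL17D had 18 to 34 counts in control libraries and 26772 to 32155 counts in IL17D-overexpressing libraries, as the labels state. Of the 10 genes, 8 passed edgeR's filter on low counts, and CNN1 and MYL9 did not. A549 expressed its epithelial keratins strongly, and the summed level of 6 epithelial markers was 12737 to 13243 CPM in control and 12371 to 12619 CPM in IL17D-overexpressing libraries. KRT8, for example, had 7648 ± 130.0 CPM (SD, n = 3) in control cells, whereas EPCAM was near 1.05 CPM and KRT19 did not pass the filter. All 5 tested epithelial markers had log2 fold changes under 0, where 49.9% of all tested genes were above 0. Among them 1 was called in edgeR, where 1.58% of all tested genes were. This was CDH1 (E-cadherin), which fell from 43.4 ± 2.65 to 35.7 ± 3.32 CPM (SD, n = 3 each; adjusted p = 0.031 in edgeR). How its call fares under the alternatives is not given here. Smooth muscle markers summed to 109 to 120 CPM in control and 116 to 120 CPM in IL17D-overexpressing libraries, with 3 of 7 under 50 counts over all libraries. Fibroblast markers summed to 23.3 to 25.7 CPM and 19.8 to 24.5 CPM, with 6 of 7 under 50 counts. None of these markers was at 0 in all libraries, and the part that any of them has in the results below was not tested.

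With edgeR's quasi-likelihood test, none of the 8 tested genes had an adjusted p under 0.05, where 1.58% of all 15754 tested genes did. Per gene, the largest difference was that of TAGLN (log2 fold change 0.23) and the smallest that of FLNA (0.0084), and 7 of 8 were above 0, with TPM1 below. The median log2 fold change of the 8 genes was 0.060, against -0.00044 over all tested genes. At an unadjusted p under 0.05, 3 genes passed in edgeR, namely ACTG1, ACTB and VCL, where 11.6% of all tested genes did. DESeq2's Wald test called none at the adjusted threshold and limma voom called 1, ACTG1. In both of these tests, 3 genes had an unadjusted p under 0.05. The 3 IL17D-overexpressing libraries all lay above the 3 control libraries for ACTB, ACTG1 and VCL, where 7.48% of all tested genes did, and all lay below them for TPM1, where 8.31% did. The counts come from bulk RNA, so a small difference in every cell and a larger one in some of the cells cannot be told apart.

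**Figure D1:**
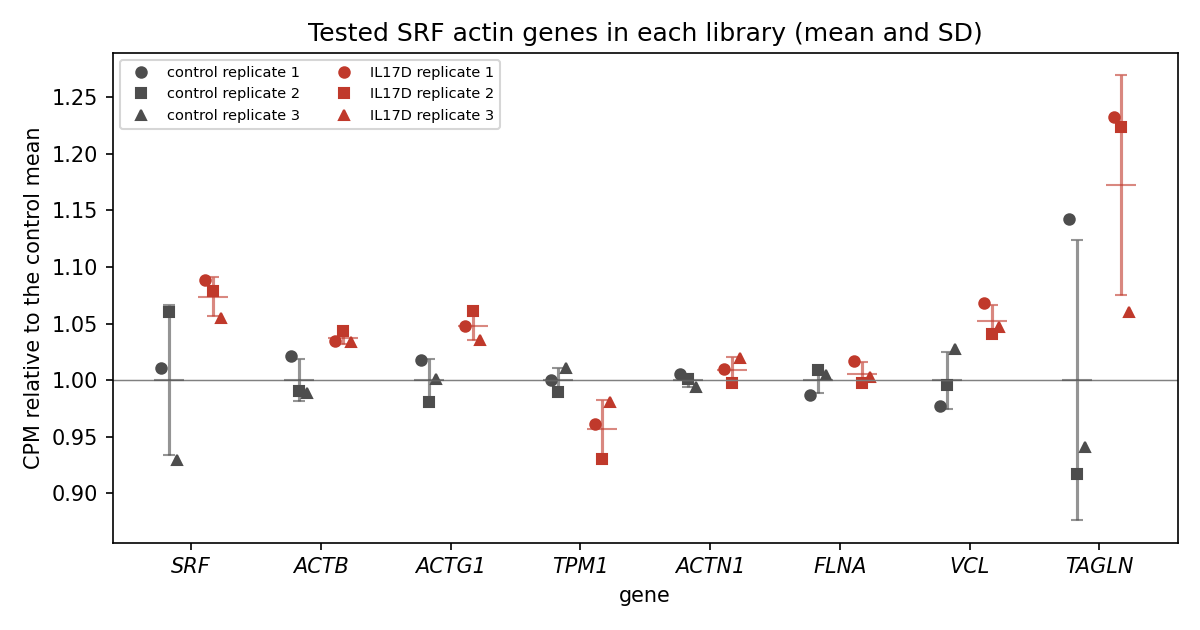
CPM of the 8 tested genes in each library, divided by that gene's control mean (vertical axis, linear). Points are libraries, shapes are replicate numbers, and bars are the mean and SD of 3 libraries. The red points of ACTB, ACTG1 and VCL lie above all grey points of the same gene, those of TPM1 lie below, and the other 4 genes overlap.

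Levels per length ran from the cytoplasmic actins, the highest, down to CNN1 and MYL9. Here a level is the CPM divided by the deposited gene length in kilobases, which for all 10 genes equals the total of all annotated exons in GENCODE release 29, so genes with many alternative exons, such as TPM1, come out lower than their main transcript would. In control cells ACTG1 stood first with 1819 ± 33.7 CPM per kilobase (SD, n = 3), followed by ACTB with 1494 ± 27.8 and FLNA with 310 ± 3.54. ACTN1 (49.2 ± 0.288), VCL (36.8 ± 0.930), TPM1 (24.8 ± 0.256) and SRF (13.2 ± 0.874) made up the middle of the range. TAGLN had 1.64 ± 0.203 CPM per kilobase, CNN1 0.0382 ± 0.0291 and MYL9 0.0145 ± 0.0252 (SD, n = 3 each). The order was the same in IL17D-overexpressing cells. Neighbours in this order differed by more than the spread of their libraries, with the exception of CNN1 and MYL9. All 10 genes together took 1.52% to 1.54% of the counts of control libraries and 1.56% to 1.58% of those of IL17D-overexpressing libraries. In control replicate 1, ACTB, ACTG1 and FLNA held 87294, 90069 and 52717 of the 250683 counts of the panel. The summed shares thus mostly describe these genes.

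**Figure D2:**
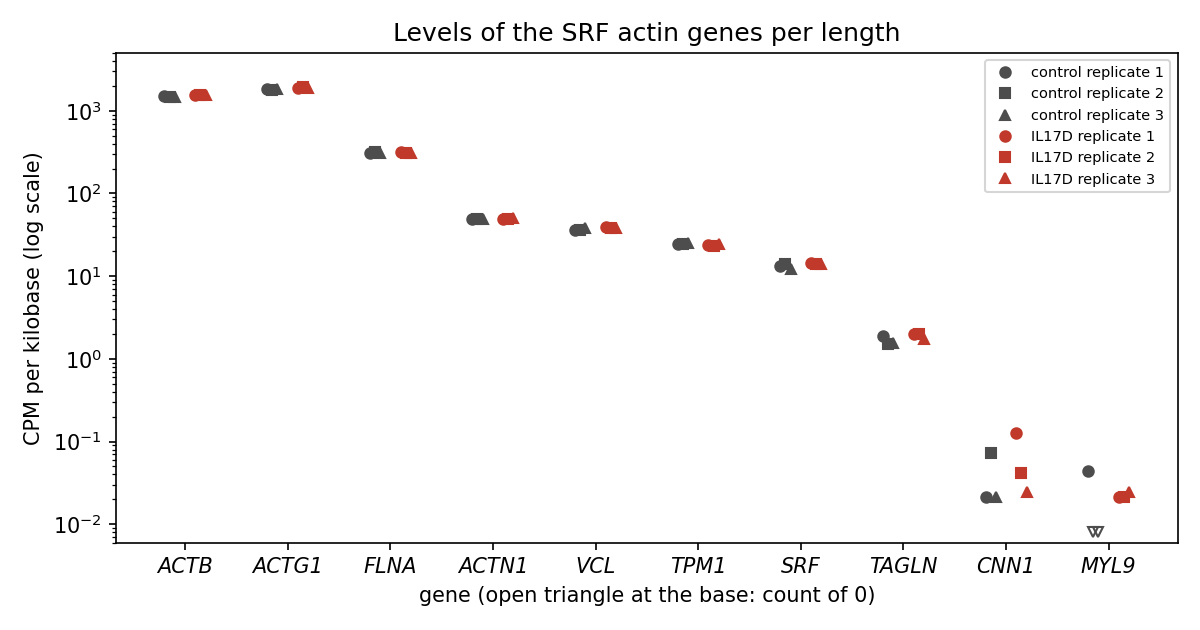
CPM per kilobase of deposited gene length for the 10 genes in each library (vertical axis, log scale). ACTG1 and ACTB lie highest, TAGLN near 2 CPM per kilobase, and CNN1 and MYL9 under 0.2, with open triangles for the 2 control libraries in which MYL9 had a count of 0.

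SRF (ENSG00000112658, chromosome 6 of GRCh38, 43171299 to 43181507) encodes the transcription factor. Its level was 56.0, 58.8 and 51.5 CPM in control replicates 1, 2 and 3 and 60.3, 59.8 and 58.4 CPM in IL17D-overexpressing replicates 1, 2 and 3. Control replicate 2 lay above IL17D-overexpressing replicate 3, so the groups overlapped, and control replicate 3 was the lowest of all libraries. The log2 fold change was 0.10 (standard error 0.059, 95% interval -0.015 to 0.22, adjusted p = 0.52 in edgeR), which is a difference of 7.52% with an interval from -1.02% to 16.8%. Without control replicate 3 the log2 fold change was 0.055, and without control replicate 2 it was 0.15, with an adjusted p over all alternatives between 0.444 and 0.813.

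The cytoplasmic actins form the filaments of non-muscle cells. ACTG1 (ENSG00000184009, chromosome 17, 81509971 to 81523847), the gene of gamma-actin, had 5543, 5341 and 5452 CPM in control replicates 1, 2 and 3 and 5707, 5777 and 5639 CPM in the IL17D-overexpressing replicates. Every IL17D-overexpressing library was above every control library. The mean went from 5445 ± 101 to 5708 ± 69.0 CPM (SD, n = 3 each), a log2 fold change of 0.068 (standard error 0.022, 95% interval 0.023 to 0.11, adjusted p = 0.14 in edgeR), or 4.83% with an interval from 1.60% to 8.15%. Its adjusted p depended on the tool and on 1 library. It was 0.0077 in limma voom and 0.048 in edgeR without control replicate 1, the highest of the control libraries, and up to 0.405 under the other alternatives. ACTB (ENSG00000075624, chromosome 7, 5527147 to 5563784), the gene of beta-actin, had 5372, 5206 and 5199 CPM in control and 5440, 5485 and 5436 CPM in IL17D-overexpressing cells. Again the groups did not overlap, and control replicate 1 was the control library nearest to the other group. Its log2 fold change was 0.053 (standard error 0.022, 95% interval 0.0077 to 0.097, adjusted p = 0.32 in edgeR), or 3.71% with an interval from 0.533% to 6.99%. ACTB is the loading control of many protein and RNA assays.

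The coding sequences of these actins, of 1128 bases each, are 91.2% identical, with 99 differing bases and a longest identical stretch of 59 bases. The first 90 coding bases hold 17 of the differences, in capitals below, and are shown because reads over such bases can be assigned to 1 of the genes.
ACTB: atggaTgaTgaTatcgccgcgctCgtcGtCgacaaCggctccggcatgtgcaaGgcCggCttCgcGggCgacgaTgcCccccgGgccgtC
ACTG1: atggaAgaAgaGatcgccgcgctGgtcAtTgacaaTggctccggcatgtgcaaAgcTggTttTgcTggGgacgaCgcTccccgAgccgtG
Of the 31-base stretches in all annotated transcripts of ACTB, 16.1% also occur in other genes, most often the pseudogene ACTBP2, and of those of ACTG1, 12.8% do. The table lists 10 pseudogenes of ACTB and 20 of ACTG1 by name, and their counts summed to 26 to 36 and 21 to 52 per library, against 75305 or more on ACTB and 77258 or more on ACTG1. With both actins and these pseudogenes summed to 1 gene, the log2 fold change was 0.060 (adjusted p = 0.16 in edgeR). The share of ACTB in the counts of both actins was 49.1% ± 0.285 (SD, n = 3) in control and 48.9% ± 0.197 (SD, n = 3) in IL17D-overexpressing libraries, a difference of -0.266 percentage points (two-sided exact permutation test, p = 0.2, where 3 libraries against 3 cannot give less than 0.1). The groups overlapped in this share. The muscle actins ACTA1, ACTA2, ACTC1 and ACTG2 made up 0.0410% ± 0.00202 (SD, n = 3) of all actin counts in control and 0.0367% ± 0.00551 (SD, n = 3) in IL17D-overexpressing cells. Nearly all of these were ACTA2 counts, 56 to 72 in control and 47 to 74 in IL17D-overexpressing libraries, and the other 3 muscle actins together had 1 to 4 counts per library.

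TPM1 and ACTN1 shape the filaments. TPM1 (ENSG00000140416, chromosome 15, 63042632 to 63071915), a tropomyosin that lies along the filament, had 319, 316 and 323 CPM in control and 307, 297 and 313 CPM in IL17D-overexpressing cells. It was the only tested gene of the panel whose IL17D-overexpressing libraries all lay below the control libraries. Its log2 fold change was -0.064 (standard error 0.034, 95% interval -0.13 to 0.0061, adjusted p = 0.49 in edgeR), between -0.080 and -0.043 over all alternatives. Of its 31-base stretches, 22.9% occur in other genes, foremost the antisense gene TPM1-AS, which had 34 to 68 counts against 4472 or more on TPM1. ACTN1 (ENSG00000072110, chromosome 14, 68874143 to 68979440), the alpha-actinin that cross-links filaments in stress fibres, had 525, 523 and 519 CPM in control and 527, 521 and 533 CPM in IL17D-overexpressing cells. These groups overlapped, with a log2 fold change of 0.013 (95% interval -0.049 to 0.075, adjusted p = 0.93 in edgeR).

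FLNA and VCL tie filaments together and to the membrane. FLNA (ENSG00000196924, chromosome X, 154348524 to 154374638), filamin A, which joins filaments into networks, had 3244, 3315 and 3300 CPM in control and 3342, 3278 and 3297 CPM in IL17D-overexpressing cells. The libraries of the groups interleaved, and the log2 fold change of 0.0084 had the narrowest bounds after the actins, with a 95% interval of -0.039 to 0.056 (adjusted p = 0.94 in edgeR), or -2.66% to 3.94%. VCL (ENSG00000035403, chromosome 10, 73995193 to 74121363), vinculin, which links filaments to focal adhesions and cell junctions, had 360, 366 and 378 CPM in control and 393, 383 and 385 CPM in IL17D-overexpressing cells. All IL17D-overexpressing libraries were above all control libraries. Its log2 fold change was 0.073 (standard error 0.033, 95% interval 0.0059 to 0.14, adjusted p = 0.38 in edgeR). VCL overlaps the gene AP3M1 on the other strand by 1109 bases, and the strand setting of the counting is not given in the sources used here. With the counts of AP3M1 and of another overlapping row, AL596247.1, added, the log2 fold change was 0.043 (adjusted p = 0.69 in edgeR).

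**Figure D3:**
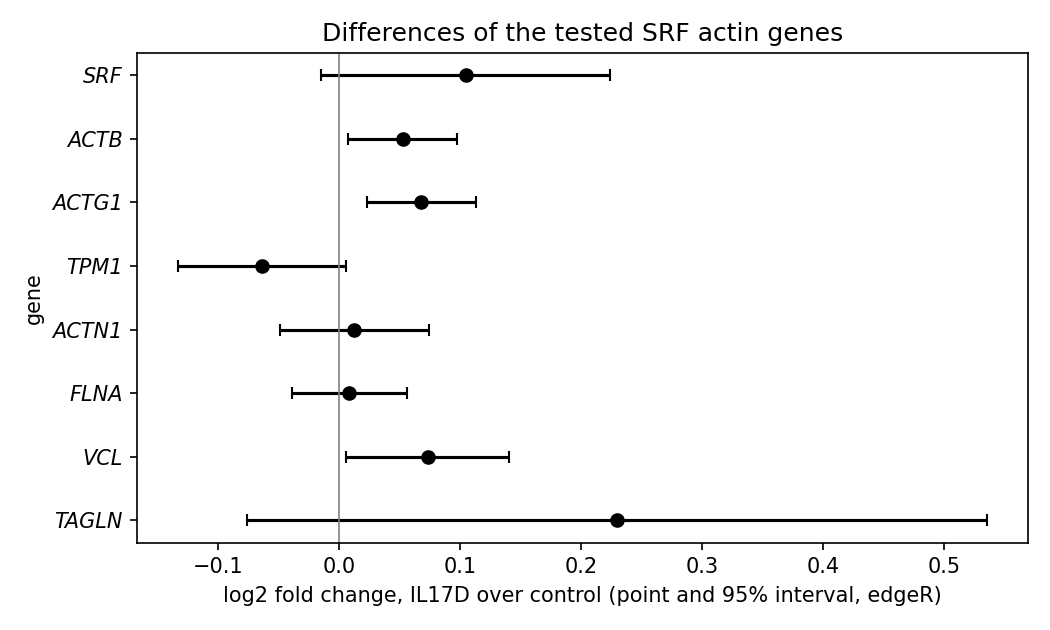
Log2 fold change of IL17D-overexpressing over control cells for the 8 tested genes (horizontal axis), with the 95% interval of edgeR's fit. The intervals of ACTB, ACTG1 and VCL start just above 0, and that of TAGLN is the widest, from -0.076 to 0.54.

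The smooth muscle-type genes were scarce or near the limit of detection. TAGLN (ENSG00000149591, chromosome 11, 117199321 to 117204782), transgelin, a calponin-related protein of smooth muscle and fibroblasts, had 119, 85 and 97 counts in control and 130, 129 and 97 counts in IL17D-overexpressing libraries, or 7.32, 5.88 and 6.03 CPM against 7.90, 7.85 and 6.80 CPM. Control replicate 1 lay above IL17D-overexpressing replicate 3, so the groups overlapped. Its log2 fold change of 0.23 had a standard error of 0.15 and a 95% interval of -0.076 to 0.54 (adjusted p = 0.62 in edgeR), so a difference of 44.9% as well as a lower level stayed within the interval at this depth. TAGLN overlaps PCSK7, a gene on the other strand with 351 to 440 counts, by 446 bases, and 10.3% of its 31-base stretches occur in other genes, most often PCSK7. With PCSK7's counts added, the log2 fold change was 0.065 (adjusted p = 0.84 in edgeR). CNN1 (ENSG00000130176, chromosome 19, 11538717 to 11550323), calponin of smooth muscle, had 1, 3 and 1 counts in control and 6, 2 and 1 counts in IL17D-overexpressing libraries. The ratio of the summed counts at equal depth was 1.78, with an exact 95% counting interval of 0.536 to 6.77, so no difference was detectable at this depth. MYL9 (ENSG00000101335, chromosome 20, 36541484 to 36551447), a regulatory light chain of myosin, had 2, 0 and 0 counts in control and 1 count in each IL17D-overexpressing library, all at or under the limit of 3 counts.

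For each of these lineage-type genes a related gene was expressed at a far higher level, a comparison chosen after the values had been seen. In control cells, CNN2 and CNN3, calponins of non-muscle cells, had 36.9 and 18.2 CPM per kilobase, against 0.0382 for CNN1. TAGLN2 had 460 CPM per kilobase against 1.64 for TAGLN, and the myosin light chain genes MYL12B, MYL6 and MYL12A had 104, 60.7 and 50.2 against 0.0145 for MYL9. Among the tropomyosins, TPM4 (80.7), TPM2 (70.2) and TPM3 (61.6) all stood above TPM1 (24.8), and ACTN4 (269) stood above ACTN1 (49.2). None of these related genes passed an adjusted p under 0.05 in edgeR. The smallest adjusted p among them was that of TPM2, whose mean was 228 ± 4.02 CPM in control and 248 ± 6.04 CPM in IL17D-overexpressing cells (SD, n = 3 each; log2 fold change 0.12, adjusted p = 0.098 in edgeR), with no overlap between the groups. TPM2 was thus higher in the IL17D-overexpressing libraries where TPM1 was lower, with TPM3 (log2 fold change 0.035) and TPM4 (-0.0059) in between. CNN2 (0.12) and CNN3 (-0.11) also had log2 fold changes of opposite sign. Their adjusted p-values in edgeR were 0.28 and 0.49, and the groups of CNN2 overlapped.

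Further genes of the SRF pathway came from lists drawn up by role, with earlier results of these data already known. A list of SRF cofactors and of the small GTPase and actin-turnover genes that act on them had 22 tested genes, of which none passed the adjusted threshold in edgeR, DESeq2's Wald test or limma voom, and 5 had an unadjusted p under 0.05 in edgeR, where 11.6% of all tested genes did. Its median log2 fold change was -0.0096, with 10 genes above 0. MRTFA, the cofactor that senses unpolymerised actin, had 121 ± 9.14 CPM in control and 111 ± 3.31 CPM in IL17D-overexpressing cells (SD, n = 3 each; log2 fold change -0.12, adjusted p = 0.29 in edgeR), and passed the threshold when control replicate 3 was left out. MRTFB had a log2 fold change of 0.019, ELK1 of 0.14, ELK3 of 0.045 and ELK4 of 0.058, none past the threshold. RHOB, a small GTPase, had the smallest adjusted p of the list, 0.077 in edgeR, with 337 ± 11.2 and 365 ± 6.22 CPM (SD, n = 3 each), and passed when control replicate 1 was left out. RHOA had 426 ± 7.31 and 427 ± 2.89 CPM (SD, n = 3 each). The largest log2 fold changes of the list were those of MYOCD (-0.39), myocardin itself, which is also among the smooth muscle markers, at 3.10 CPM in control, and LIMK2 (-0.14), a kinase that acts on cofilin, and neither passed (adjusted p = 0.60 and 0.74 in edgeR). Without control replicate 2 that of MYOCD was -0.22, and without control replicate 1 that of LIMK2 was -0.013. These cofactors were chosen for mention by role, after the values had been seen, apart from MYOCD and LIMK2.

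The list of other cytoskeletal and matricellular targets of SRF and the MRTFs had 31 tested genes. Of these, 1 rose, where 0.673% of all tested genes did, and 1 fell, where 143 of all 15754 did. In edgeR 10 of them had an unadjusted p under 0.05, where 11.6% of all tested genes did. The median log2 fold change of the list was -0.0033, with 14 genes above 0. CYR61, which encodes a secreted matrix protein and is also known as a target of YAP, rose from 79.1 ± 1.12 to 91.5 ± 1.69 CPM (SD, n = 3 each; log2 fold change 0.21, adjusted p = 0.012 in edgeR), with no overlap. ITGB1, the integrin beta chain that anchors adhesions, fell from 2190 ± 37.95 to 2036 ± 24.1 CPM (SD, n = 3 each; log2 fold change -0.11, adjusted p = 0.018 in edgeR), also with no overlap. Both calls were lost without IL17D-overexpressing replicate 1, with adjusted p-values of 0.083 and 0.16 in edgeR, and without IL17D-overexpressing replicate 3, where the list held 0 calls. The call of CYR61 was also lost without control replicate 2, and that of ITGB1 without control replicate 3. ANKRD1, a muscle ankyrin-repeat gene, had the largest log2 fold change of the list (0.33, adjusted p = 0.48 in edgeR) at 4.77 CPM in control, and 0.18 without IL17D-overexpressing replicate 2. ZYX (zyxin) and MYLK, a myosin light chain kinase gene, were named after their values had been seen. ZYX had a log2 fold change of 0.14 and MYLK of -0.16, each with no overlap (adjusted p = 0.069 and 0.068 in edgeR). MYLK passed the threshold when control replicate 2 was left out.

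A list of immediate early targets of SRF had 19 tested genes, of which 7 rose, where 0.673% of all tested genes did, and none fell. All 19 had log2 fold changes above 0, where 49.9% of all tested genes did, between 0.068 and 0.60, with a median of 0.21, and earlier results of these data had already shown such genes to be higher. The list shares no gene with the panel. NR4A1, an orphan nuclear receptor, rose from 40.3 ± 0.806 to 54.9 ± 0.899 CPM (SD, n = 3 each; log2 fold change 0.45, adjusted p = 9.2e-06 in edgeR). EGR1, the zinc-finger gene whose CArG boxes are shown above, rose from 6.54 ± 0.530 to 9.88 ± 2.28 CPM (SD, n = 3 each; log2 fold change 0.60, adjusted p = 0.030 in edgeR). Its call was lost in DESeq2's Wald test, in limma voom, and in edgeR without control replicate 2, without control replicate 3 and without IL17D-overexpressing replicate 2, where its adjusted p was 0.33. NR4A3 (log2 fold change 0.57), FOSL1 (0.27), KLF10 (0.25), MCL1 (0.16) and DUSP1 (0.15) also rose. The call of DUSP1 (adjusted p = 0.046 in edgeR) was lost in DESeq2's Wald test, with total counts, and on leaving out any 1 library other than control replicate 3. That of NR4A3 was lost without control replicate 1 or IL17D-overexpressing replicate 2, that of FOSL1 without control replicate 2 or IL17D-overexpressing replicate 1, and that of KLF10 without IL17D-overexpressing replicate 3. Of 15 genes of the list with a promoter window, 2 had a CArG box there, EGR1 and EGR2. EGR2, EGR3 and EGR4 did not pass the filter and are not among the 19 tested genes. EGR2 had 10, 1 and 5 counts in control and 2, 1 and 0 counts in IL17D-overexpressing libraries. The windows of NR4A1, NR4A3 and DUSP1 held none, and FOSL1, KLF10 and MCL1 did not match a window. FOS, a classical target of SRF and the ternary complex factors, had a log2 fold change of 0.33 with overlapping groups (adjusted p = 0.43 in edgeR). DUSP1 and FOS were named after their values had been seen. NR4A1 and MCL1 passed under every alternative, and leaving out 1 library left 4 to 7 calls, with 4 without control replicate 2 and 4 without IL17D-overexpressing replicate 2. No test compared the panel with this list.

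**Figure D4:**
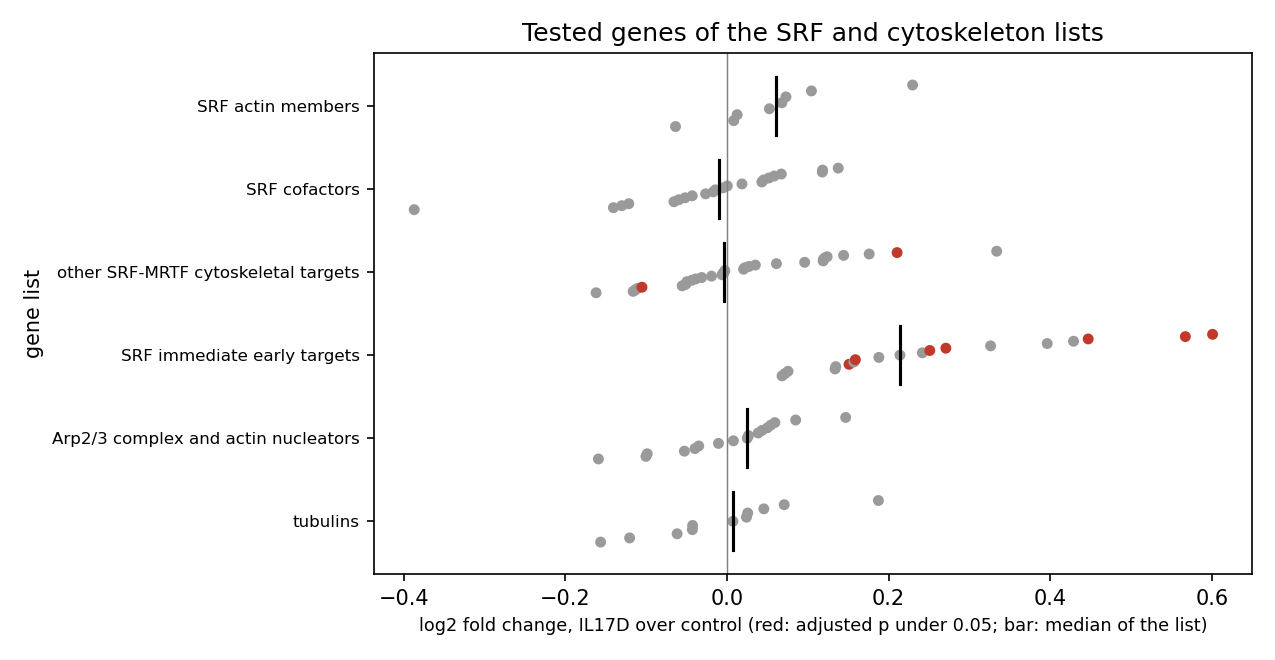
Log2 fold change of IL17D-overexpressing over control cells (horizontal axis) for each tested gene of 6 lists (vertical axis), with the median of each list as a black bar and genes with an adjusted p under 0.05 in edgeR in red. Red points are found in the list of other cytoskeletal targets (2 genes) and in the immediate early list (7 genes), and none in the panel of 8 tested genes.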

How the data were processed

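The authors deposited 1 table of counts of reads per gene for 6 libraries, without normalization, with gene names, GRCh38 coordinates and gene lengths, and 0 of its per-sample columns were left out. The submitters' processing notes name hg38 and Bowtie2. The counting tool and its strand setting are not given in the sources used here. Groups and replicate numbers came from the titles. Genes were kept by edgeR's filterByExpr, scaled by TMM and compared with the quasi-likelihood test (glmQLFit, glmQLFTest), with Benjamini-Hochberg adjustment over 15754 genes. Analyses used R 4.3.3, edgeR 4.0.16, limma 3.58.1, DESeq2 1.42.0, Python 3.11.15 and scipy 1.17.1. Standard errors and 95% intervals were derived from the F statistic. CPM are TMM-scaled. All tests are two-sided, and errors are SDs of 3 libraries.

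The members and lists were chosen with earlier results of these data known. Named were all members, and in each list the genes past the adjusted threshold (at most 6) and the 2 largest fold changes at a mean of at least 1 CPM. Alternatives were DESeq2 size factors, total counts (chosen after seeing the data), DESeq2, limma voom, other filters, a replicate block, summed overlapping genes or pseudogenes, and leaving out each library. On simulated counts, 200 changed genes were drawn at random from all genes kept by the filter. There edgeR recovered 82% of changes of 1 and 56% of changes of 0.5 in log2, among 15496 tested genes, with 8 wrong calls. Changes as small as those of the panel were not simulated, so these shares do not give its recovery.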

Additional observations from a re-analysis of the deposited data

How the results depend on the processing

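Directions of the 8 tested genes did not turn under any alternative run, and 111 of 113 recomputed values kept their side of the threshold. The exceptions were ACTG1 in limma voom and without control replicate 1, which gave 1 called gene of the panel each, so leaving out 1 library gave 0 to 1. Leaving out 1 library gave 0 to 1 calls in the list of SRF cofactors (RHOB without control replicate 1, MRTFA without control replicate 3), 0 to 3 in the list of other cytoskeletal targets and 4 to 7 in the immediate early list. With a replicate block these counts were 0 for the panel, 0, 2 and 7, as without it, while calls over all genes were 115 higher and 157 lower, and 2 genes of the panel in place of 3 had an unadjusted p under 0.05 (ACTB had 0.057). Same-numbered libraries deviated together with correlations of -0.031 to 0.026 over genes, so the numbers were not taken as pairs. Over all genes, 106 rose and 143 fell, against 69 and 76 without IL17D-overexpressing replicate 3 and 76 and 79 without IL17D-overexpressing replicate 1. CNN1 and MYL9 were limited by depth.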

Other observations

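Of the cytoskeletal genes outside the SRF lists, those of the Arp2/3 complex with its activators and the tubulins were examined as lists. Neither list held a called gene in edgeR, DESeq2's Wald test or limma voom. Over all tested genes, edgeR called 1.58%. Of 17 tested genes of the Arp2/3 complex, which branches actin filaments, and its activators, 10 had log2 fold changes above 0, and the median was 0.025. In edgeR 1 of them had an unadjusted p under 0.05, where 11.6% of all tested genes did. The largest log2 fold changes were those of ARPC1B (-0.16), at 5.06 ± 0.304 CPM (SD, n = 3) in control, and ARPC5L (0.15), with 58.0 ± 0.473 CPM in control and 64.2 ± 1.58 CPM in IL17D-overexpressing cells (SD, n = 3 each; adjusted p = 0.23 in edgeR). Of 11 tubulin genes, which build microtubules, 6 were above 0 with a median of 0.0074. In edgeR 2 of them had an unadjusted p under 0.05, where 11.6% of all tested genes did. TUBB2A (0.19) and TUBB2B (-0.16), closely similar beta-tubulin genes, had the largest log2 fold changes, with adjusted p-values of 0.37 and 0.86 in edgeR. The log2 fold change of TUBB2A was 0.12 without control replicate 3. The sign of TUBB2B turned without IL17D-overexpressing replicate 2, where its log2 fold change was 0.084.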
